A study of Mus musculus with 30 samples.

Results

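Ganciclovir (GCV) given to mice that carry no thymidine kinase transgene was examined here in the striatum, by comparing the 3 libraries labelled NestinTK- GCV with the 3 labelled NestinTK- PBS. These 6 libraries, each from 1 mouse, were chosen by genotype, treatment and tissue from 30 libraries in all, 15 of them striatal. NestinTK+ mice express a viral thymidine kinase under the second intron of the rat Nestin promoter, so that GCV kills dividing Nestin-positive precursor cells of the subventricular zone (SVZ). The NestinTK- mice are wild-type littermates on a C57Bl/6 background, adult mice of either sex. They received GCV or phosphate-buffered saline (PBS) from a subcutaneous osmotic minipump for 4 weeks before the tissue was taken, and the labels give no sex, litter or batch. Neither group carries the transgene, so this comparison addresses what GCV treatment goes with when the target enzyme is absent. The NestinTK+ striatum libraries (5 GCV, 4 PBS) and the SVZ libraries of the same 6 wild-type mice are used below only where they show how the wild-type difference behaves elsewhere.

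GCV is a guanosine analogue that becomes toxic to dividing cells once a herpesvirus kinase phosphorylates it. Mammalian cells phosphorylate it poorly. The striatum is built mainly of GABAergic medium spiny neurons, crossed by bundles of myelinated axons and bordered by the ependyma of the lateral ventricle and by the cortex above, so a dissected piece can hold some of each. Each library counted poly(A) 3′ ends, and the libraries held 3755752 to 4693441 gene counts. Of 50508 genes in the table, 13759 had CPM, the counts scaled to a common library total, above 1 in at least 3 of the 6 libraries and were tested. Every library carried the spiny neuron markers at high level: 26 genes shared by these neurons summed to 15881 to 19621 CPM in the GCV libraries and 18348 to 18833 CPM in the PBS libraries. Xist was present at 997 counts or more in every library and no Y-linked gene checked had a count, so all 6 libraries were of female type. The leading numbers in the library labels ran from 1 to 8 for the GCV libraries and from 11 to 13 for the PBS libraries. The labels do not say what these numbers count. Any library order they mark cannot be told apart from treatment. The 3 PBS mice have numbers in the 3400 series, as does GCV mouse 1 alone, so values of that mouse against the PBS mice are given as well.

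Fewer transcripts rose than fell. By edgeR's quasi-likelihood test with the thresholds of the study (nominal p no higher than 0.01, fold difference no smaller than 2), 76 genes (0.552% of those tested) were higher in the GCV libraries and 248 (1.8%) were lower; "called" below means past both thresholds. After Benjamini-Hochberg adjustment over all 13759 genes, 12 higher (0.0872%) and 63 lower (0.458%) genes had an adjusted p under 0.05, and 568 had one under 0.1. At an unadjusted p under 0.05 there were 1028 higher and 1351 lower genes, 17.3% of those tested. The middle of the distribution did not shift, since the median log2 fold change over all genes was 0.01. The 3 GCV libraries lay wholly above the 3 PBS libraries for 1373 genes (9.98%) and wholly below them for 1532 (11.1%).

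The libraries did not weigh equally in these counts. Over the 248 genes called lower, PBS 2 lay a median of 0.83 on the log2 scale below the mean of the other 2 PBS libraries, whereas GCV 3 lay 0.57 above the other 2 GCV libraries and GCV 2 lay 0.56 below them. The mean correlation of PBS 2 across genes was 0.954 with the GCV libraries and 0.946 with the other PBS libraries. Without PBS 2, 159 higher and 440 lower genes were called and 1149 passed the adjusted test. Without GCV 3, 50 higher and 327 lower genes were called and 218 passed the adjusted test, and without GCV 1, 15 passed it. Leaving out GCV 2, PBS 1 or PBS 3 reduced the lower calls to 107, 134 and 142, and then 1, 2 and 1 genes passed the adjusted test. GCV mouse 1 alone against the 3 PBS mice, all of the 3400 series, gave 24 higher and 109 lower calls, none at an adjusted p under 0.05 and 1130 at an unadjusted p under 0.05. With 1 mouse in an arm the spread there comes from the PBS libraries alone, so these counts say nothing about the stability of the calls, and only the direction and size of the values are used below. All 248 genes called lower were again negative in that comparison, with a median of -1.36, and 58 of the 64 measured genes called higher were positive, with a median of 1.01. The 4 libraries are also in the comparison of all 6.

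The wild-type libraries were also set beside the 9 NestinTK+ striatum libraries, which took no part in the calls. For 135 of the 248 genes called lower, all 3 wild-type GCV libraries lay below all 9 NestinTK+ libraries, while this held for 4.19% of all genes tested. For 3 of the 248, all 3 wild-type PBS libraries lay above the 9 (0.458% of all genes). Among the 76 genes called higher, the GCV libraries lay above all 9 NestinTK+ libraries for 11 (1.61% of all genes) and the PBS libraries lay below them for 4 (0.494% of all genes). The wild-type values entered the calls, so these counts are no second test. The PBS side could less easily reach its count. Among the 248 genes, PBS 2 lay a median of 0.83 on the log2 scale below the other 2 PBS libraries. The 9 also include NestinTK+ PBS 4, which was high for several marker lists given below. The counts therefore do not settle on which side the difference lay.

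**Figure D1:**
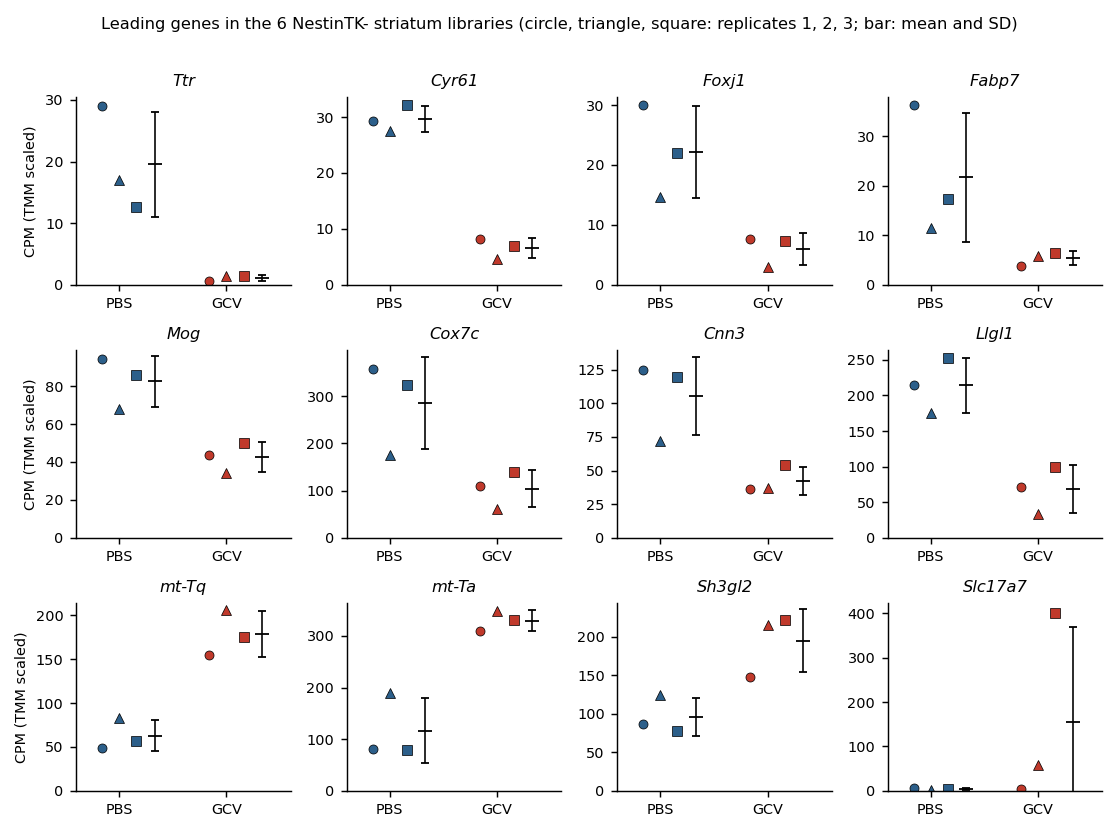
CPM, scaled by TMM factors, of 12 genes in the 3 PBS (blue) and 3 GCV (red) wild-type striatum libraries, each panel with its own axis from 0; circle, triangle and square are replicates 1, 2 and 3, and the bar is the mean with its SD, the bar of Slc17a7 being cut at 0. The groups do not overlap for 11 of the 12 genes, Cyr61 showing tight groups, and overlap for Slc17a7, where GCV 3 stands at 401 CPM and GCV 1 within the PBS range.

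Cyr61 (Ccn1), a secreted matricellular protein induced as an immediate early gene, was low in all 3 GCV libraries. It was at 8.19, 4.68 and 6.88 CPM in the GCV libraries and at 29.3, 27.5 and 32.2 CPM in the PBS libraries, so that the groups stood far apart and each was tight. The log2 fold change was -2.17 ± 0.27 (SE; edgeR adjusted p = 0.0048) and ranged from -2.34 to -1.85 over the alternatives, the latter within the 3400 series. In NestinTK+ mice the gene ranged from 14.5 to 33.04 CPM over both treatments, above every wild-type GCV library, and its log2 fold change was -0.03. The other immediate early genes gave no common shift: of 37 tested, 1 was called higher (Nr4a2, discussed with the cortical genes) and 1 lower (Cyr61). The median was -0.11 beside 0.01 over all genes, and ranged from -0.29 within the 3400 series to 0.17 without PBS 1. Of the 37, 4 were wholly lower and 1 wholly higher, beside 11.1% and 9.98% of all genes. The 300 bases around the start site of Cyr61, from RefSeq (GRCm38.p6, chr3:145649936-145650235, minus strand, 250 bases before and 50 after the start), are shown because the groups of this gene were tight and far apart. Capitals mark a TATA motif, TATAAA, starting 25 bases before the start site, and TGACG, the core of the cyclic AMP response element, which lies on the opposite strand as CGTCA and starts 58 bases before it:
Cyr61 promoter: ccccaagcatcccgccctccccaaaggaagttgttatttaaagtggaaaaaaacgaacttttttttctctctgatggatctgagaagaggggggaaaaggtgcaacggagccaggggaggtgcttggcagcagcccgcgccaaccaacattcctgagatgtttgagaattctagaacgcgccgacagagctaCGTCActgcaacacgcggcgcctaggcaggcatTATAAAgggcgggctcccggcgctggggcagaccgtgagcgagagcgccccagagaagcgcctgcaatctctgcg
On either strand, TATAAA occurs in 13.6% and TGACG in 20.8% of the 32851 promoter windows of that length, and no use of either motif was measured.

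Transcripts of the ventricular lining were lower in the GCV than in the PBS libraries. Ttr, the thyroid hormone carrier made in bulk by choroid plexus, was at 0.546, 1.48 and 1.38 CPM in the GCV libraries and at 29.1, 17.0 and 12.7 CPM in the PBS libraries. Its log2 fold change of -4.05 ± 0.46 was the most negative of all genes called lower (edgeR adjusted p = 0.0031). Of 19 choroid plexus markers 8 were tested, 7 were negative and only Ttr was called, with a list median of -0.59. The defining markers Kcnj13 and Folr1 did not reach the level for testing. The list summed to 190 to 237 CPM in the GCV libraries and 278 to 319 CPM in the PBS libraries. It summed to 149 to 218 CPM in 8 of the 9 NestinTK+ libraries and to 2264 CPM in NestinTK+ PBS 4. On this sum the wild-type PBS libraries were high beside those 8, and the GCV libraries were not low. Choroid plexus material in the dissected pieces cannot be told apart from striatal transcription. Genes of the ciliated ependymal cells were also lower in the GCV than in the PBS libraries, and more broadly. Foxj1, the master transcription factor of motile cilia, was at 7.64, 2.96 and 7.34 CPM in the GCV libraries and at 30.0, 14.6 and 21.97 CPM in the PBS libraries, without overlap (log2 fold change -1.89 ± 0.37, edgeR adjusted p = 0.037). Ccdc153 (-2.14 ± 0.57) and Rarres2 (-1.77 ± 0.43) were called lower too. In all, 12 of 14 tested ependymal markers were negative and 3 were called lower, beside 1.8% of all genes. The median was -0.99, reaching from -1.31 to -0.75 over the alternatives. That list summed to 43.9 to 54.2 CPM in the wild-type GCV libraries, to 79.7 to 119.4 CPM in the PBS libraries and to 71.6 to 128.8 CPM over the 9 NestinTK+ libraries, so the wild-type GCV libraries were the 3 lowest of the 15. In bulk tissue, fewer cells of a type and less RNA per cell cannot be told apart, here and below.

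Myelin genes moved in one direction but few passed. All 30 oligodendrocyte markers tested were negative; 3 were called lower, among them Gjc3 and Fa2h, Mog joined them by adjusted p, and the median was -0.42, with 14 of the 30 wholly lower in the GCV libraries, beside 11.1% of all genes. Mog, a glycoprotein of the outer myelin surface, was at 43.7, 34.02 and 50.2 CPM in the GCV libraries and at 94.3, 68.0 and 85.7 CPM in the PBS libraries, PBS 2 being the nearest to the GCV group (log2 fold change -0.95 ± 0.19, edgeR adjusted p = 0.039). Gjc3, a gap junction protein of oligodendrocytes, was at 46.4, 30.3 and 36.5 CPM against 97.8, 51.0 and 84.5 CPM (-1.04 ± 0.23), and Fa2h, which hydroxylates fatty acids of myelin lipids, at 17.2, 14.3 and 13.1 CPM against 36.3, 19.4 and 43.7 CPM (-1.16 ± 0.28), neither overlapping. By contrast Mag, an adhesion molecule of the inner myelin wrap, was at 290.1, 316 and 393 CPM in the GCV libraries and at 355, 366 and 359 CPM in the PBS libraries, which overlap. The list summed to 5289, 4069 and 5231 CPM in the GCV libraries, 7716, 5751 and 7899 CPM in the PBS libraries, and 3770 to 5526 CPM in 8 of the 9 NestinTK+ libraries, so on this measure the wild-type PBS libraries, and not the GCV ones, were high beside the rest of the striatum. The ninth, NestinTK+ PBS 4, reached 10671 CPM. In oligodendrocyte precursors, 3 of 18 tested markers were called lower: Nkx2-2 (-2.26 ± 0.51) and Olig2 (-1.02 ± 0.25), transcription factors of the lineage, and Cspg5 (-1.26 ± 0.40), whose groups overlapped because GCV 3 was at 202 CPM and PBS 2 at 116 CPM. That list had a median of -0.20, with 8 of the 18 at an unadjusted p under 0.05, 4 wholly lower and none wholly higher. Over all genes 1.8% were called lower, 17.3% had an unadjusted p under 0.05 and 11.1% were wholly lower. Astrocyte markers had a median of -0.13 with 1 of 25 called lower (Agt). Of these 25, 18 were negative and 9 had an unadjusted p under 0.05, beside 17.3% of all genes. Wholly lower were 5 and wholly higher 2, beside 11.1% and 9.98% of all genes. Microglial markers had a median of 0.02 with 1 of 24 called lower (Mpeg1).

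Further genes with the lowest p values that fell had varied roles, and no grouping of them was tested. Llgl1, a basolateral polarity protein, was at 71.5, 34.02 and 100.03 CPM in the GCV libraries and at 214, 175 and 253 CPM in the PBS libraries (log2 fold change -1.64 ± 0.28, edgeR adjusted p = 0.037); the 9 NestinTK+ libraries spanned 132 to 236 CPM. Cnn3, an actin-binding calponin, was at 36.0, 37.0 and 54.4 CPM against 125, 71.9 and 119.9 CPM (-1.31 ± 0.23), and at 61.0 to 167 CPM in NestinTK+ mice. Both genes share exonic bases with a gene on the opposite strand, and the strand setting of the counting was not stated. For both, the wild-type GCV libraries were the lowest 3 of all striatum libraries. Pls1, an actin-bundling plastin, was at 3.82, 4.44 and 9.41 CPM against 34.2, 18.7 and 23.6 CPM (-2.09 ± 0.35). Elmo1, part of a Rac activation complex, changed by -1.36 ± 0.24, and Map2k1, the kinase MEK1, by -1.003 ± 0.18. Lmo2, a transcriptional adaptor, Mfsd14b and Epdr1 fell by 1.095, 1.04 and 1.11, each at an edgeR adjusted p of 0.037. Among called genes without overlap, Gstp1, a glutathione transferase, and Clcn2, a chloride channel, had large negative values of -2.49 ± 0.56 and -2.40 ± 0.58, but Gstp1 has a near-identical neighbour, Gstp2, so that its counts are uncertain. Il20ra (-1.97), the gamma-secretase subunit gene Psenen (-1.97) and 0610009B22Rik (-2.03) were of similar size, and each of these 5 genes had an edgeR adjusted p between 0.053 and 0.062. Fabp7, a fatty acid-binding protein of radial glia and astrocytes, was at 3.82, 5.92 and 6.42 CPM against 36.3, 11.4 and 17.4 CPM (-1.99 ± 0.40, edgeR adjusted p = 0.039). The inhibitors of helix-loop-helix factors Id3 and Id4, named after their values were seen, both fell, Id3 by 1.26 and Id4 by 1.51 on the log2 scale, each at an edgeR adjusted p of 0.037. Id4 was at 78.3, 87.5 and 117 CPM in the GCV libraries and at 345, 137 and 322 CPM in the PBS libraries.

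Among genes of energy supply and protein synthesis, lower calls were more frequent than over all genes. Of 90 nuclear-encoded respiratory chain genes tested, 10 were called lower and 5 passed the adjusted test (Ndufb3, Ndufb6, Ndufa1, Uqcrfs1 and Cox7c), 10 were wholly higher and 16 wholly lower in the GCV libraries, 38 were positive and the median was -0.07. Ndufb3, a subunit of complex I, was at 179.6, 117 and 227 CPM in the GCV libraries and at 475, 316 and 423 CPM in the PBS libraries (log2 fold change -1.21 ± 0.21, edgeR adjusted p = 0.037). Cox7c, of complex IV, was at 110.3, 61.6 and 139.7 CPM against 358, 175 and 324 CPM (-1.46 ± 0.28, edgeR adjusted p = 0.037). Of 79 cytosolic ribosomal protein genes, 10 were called lower, 4 passed the adjusted test, among them Rpl30, Rpl5 and Rpl35a, 5 were wholly higher and 21 wholly lower, 30 had an unadjusted p under 0.05, 32 were positive and the median was -0.21. Over all genes, 1.8% were called lower, 17.3% had an unadjusted p under 0.05, 9.98% were wholly higher and 11.1% wholly lower. Several of the called genes had overlapping groups, among them Ndufa4, Ndufs3, Sdhd, Rps27a, Rps23, Rpl15, Rps24 and Rpl36al. Rpl30, of the large subunit, was at 91.4, 69.3 and 117 CPM in the GCV libraries and at 355, 119 and 339 CPM in the PBS libraries, PBS 2 lying just above GCV 3. None of these genes rose past both thresholds in either list. Gapdh, a glycolytic enzyme often used as a reference, was at 35.8, 22.7 and 45.2 CPM against 103, 57.9 and 104 CPM (-1.35 ± 0.26, edgeR adjusted p = 0.037). The annotation holds processed copies of Rpl30, Rpl5, Rpl35a and Gapdh, so their counts are uncertain. The lower calls were most frequent among short transcripts: of the 1346 genes with annotated transcripts of at most 1191 nucleotides, 48 (3.57%) were called lower and 10 (0.743%) higher, whereas of the 1346 with transcripts of 6607 nucleotides or more, 10 (0.743%) were called lower. The median log2 fold change was 0.00 over the short set and 0.05 over the long one.

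Of the mitochondrial transcripts, 5 tRNAs rose and no messenger RNA passed the test. This group was taken up after the values were seen. Of the 22 mitochondrial tRNA genes 11 were tested, 10 were positive, 4 were called higher (mt-Tq, mt-Ta, mt-Tc and mt-Tl1), mt-Tm joined them by adjusted p, 7 were wholly higher in the GCV libraries, beside 9.98% of all genes, and the median log2 fold change was 0.97, ranging from 0.75 to 1.31 over the alternatives. The glutamine tRNA mt-Tq was at 155, 206 and 176 CPM in the GCV libraries and at 49.0, 82.4 and 56.6 CPM in the PBS libraries (1.51 ± 0.20, edgeR adjusted p = 0.0055). The alanine tRNA mt-Ta was at 309, 349 and 331 CPM against 81.8, 189 and 79.0 CPM (1.497 ± 0.26, edgeR adjusted p = 0.037). PBS 2 was the highest PBS library for each of the 4 called tRNAs. Summed over the 22 genes, the level was 1036, 1117 and 1005 CPM in the GCV libraries and 373, 678 and 385 CPM in the PBS libraries. It was 429 to 818 CPM in the 9 NestinTK+ libraries. The wild-type GCV libraries were thus the 3 highest of the 15, while wild-type PBS 1 and PBS 3 lay below all 9 NestinTK+ libraries. The 4 called genes are shown as annotated in GENCODE vM21 (GRCm38), 5′ to 3′ on their own strand, because a kit that primes on poly(A) counts such transcripts only where an A-rich stretch or a tail is present; capitals mark runs of 4 or more A, which only mt-Tl1 of the 4 contains.
mt-Tq (chrM:3772-3842, minus strand): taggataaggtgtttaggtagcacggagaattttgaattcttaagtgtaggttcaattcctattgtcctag
mt-Ta (chrM:5018-5086, minus strand): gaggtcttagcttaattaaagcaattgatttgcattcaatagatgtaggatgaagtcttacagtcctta
mt-Tc (chrM:5192-5257, minus strand): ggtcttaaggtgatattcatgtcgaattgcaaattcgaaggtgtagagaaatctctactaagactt
mt-Tl1 (chrM:2676-2750, plus strand): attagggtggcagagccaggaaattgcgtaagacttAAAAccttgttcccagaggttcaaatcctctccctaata
The first 3 lie on the opposite strand to most mitochondrial messenger RNAs, and mt-Tq shares bases with mt-Ti, so without a stated strand setting the strand of these reads is not known. Of the 9 tested rRNA and protein genes of the mitochondrial list none was called by edgeR, DESeq2 or limma-voom, and 3 had an unadjusted p under 0.05: the small rRNA mt-Rnr1 was higher (0.35 ± 0.13) and the complex I genes mt-Nd1 (-0.33 ± 0.13) and mt-Nd6 (-0.41 ± 0.17) were lower. Their median was -0.03.

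**Figure D2:**
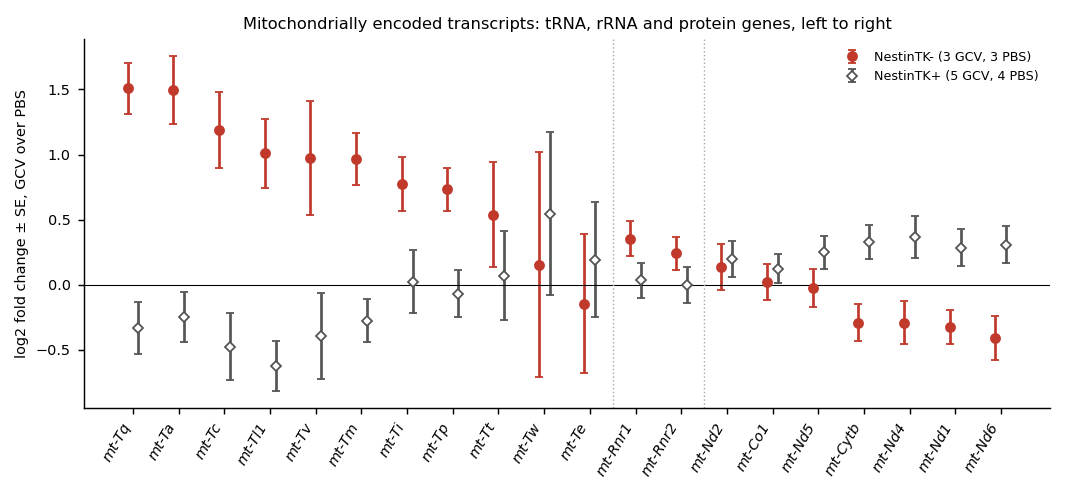
Log2 fold change of GCV over PBS, with its SE, for the 20 tested mitochondrially encoded transcripts in wild-type (red circles) and NestinTK+ striatum (open diamonds), divided by dotted lines into tRNA, rRNA and protein genes. In wild-type mice 10 of the 11 tRNAs are positive, up to 1.51 for mt-Tq, and the protein genes lie between -0.41 and 0.13; in NestinTK+ mice the tRNA median is -0.25.

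The other genes that rose by adjusted p were few and had no common role. Mpi, which isomerises mannose 6-phosphate, was at 31.4, 41.4 and 39.2 CPM in the GCV libraries and at 14.1, 16.6 and 17.9 CPM in the PBS libraries (1.21 ± 0.22, edgeR adjusted p = 0.037). Sh3gl2, endophilin A1 of synaptic vesicle endocytosis, was at 148, 216 and 222 CPM against 86.8, 124 and 77.1 CPM (1.03 ± 0.20, edgeR adjusted p = 0.037). The groups did not overlap for either gene. Map3k10 (0.99 ± 0.20), the imprinted noncoding RNA Peg13 (0.79 ± 0.16), the small nucleolar RNA Snord89 (1.80 ± 0.38), Mrfap1 (0.66 ± 0.14), Gpatch2 (1.35 ± 0.29) and the Sm-like protein gene Lsm12 (1.29 ± 0.27) completed the list with mt-Tq, mt-Ta, mt-Tm and Slc17a7. Among nuclear noncoding RNAs as a list, 13 of 18 were positive, Peg13 alone passed and the median was 0.24; Malat1 was at 8454, 3117 and 2207 CPM in the GCV libraries and at 4552, 4163 and 4947 CPM in the PBS libraries, GCV 1 lying above the PBS range and the remaining GCV libraries below it.

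Cortical transcripts were among the largest positive values, and they followed single libraries. Slc17a7, the vesicular glutamate transporter of cortical neurons, was at 4.64, 57.7 and 401 CPM in the GCV libraries and at 6.80, 2.58 and 4.54 CPM in the PBS libraries: GCV 3 and, at a lower level, GCV 2 were high and GCV 1 was within the PBS range. Its log2 fold change was 5.07 ± 1.02 (edgeR adjusted p = 0.039), 2.76 without GCV 3 and 0.00 with GCV 1 alone. Tbr1 at 2.18, 7.64 and 81.9 CPM, Neurod2 at 0.546, 8.38 and 68.8 CPM and Nr4a2 at 0.546, 29.1 and 146 CPM in GCV 1, 2 and 3 showed the same order of libraries, with at most 5.38 CPM in any PBS library. Of 16 cortical excitatory markers tested, 15 were positive, 5 were called higher by edgeR (Slc17a7, Neurod2, Tbr1, Slc30a3 and Nr4a2), 4 by DESeq2 and 0 by limma-voom, and the median was 1.12, which became 0.39 without GCV 3 and 0.02 within the 3400 series. The list summed to 4052.5, 2839 and 4992 CPM in GCV 1, 2 and 3 and to 2046, 3166 and 2217 CPM in the PBS libraries, so GCV 1 was high on the sum while within or below the PBS range for Tbr1, Neurod2 and Nr4a2. The defining marker Neurod6 did not reach the level for testing. In the SVZ library of GCV mouse 3 the list also summed highest, at 2964 CPM against 694 to 1323 CPM in the other 5 wild-type SVZ libraries. The part of cortical tissue in other positive values was not tested; Cck (51.0 CPM in GCV 2 and 211 CPM in GCV 3 against 11.0 to 19.5 CPM in the PBS libraries) and Nxph3 followed the same libraries. Of the called genes without overlap that changed most, 3110035E14Rik, at 19.7, 40.9 and 165 CPM in the GCV libraries, and Ipcef1, at 11.5, 27.1 and 63.1 CPM, also had their highest values in GCV 3. Both were within 0.40 of zero on the log2 scale with GCV 1 alone. Others of that set were more even: Slc8a1, a sodium-calcium exchanger, was at 5.73, 10.8 and 10.8 CPM against 3.99, 2.80 and 1.43 CPM (1.73 ± 0.46), and Ap4e1, an adaptor complex subunit, was at 6.55, 9.12 and 8.03 CPM against 3.52, 2.80 and 1.19 CPM (1.64 ± 0.47). Lypd6b, Cnih3, Gm27029 and Gm15536 differed by 1.93, 1.81, 1.63 and 1.62. None of these genes had an edgeR adjusted p under 0.05.

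**Figure D3:**
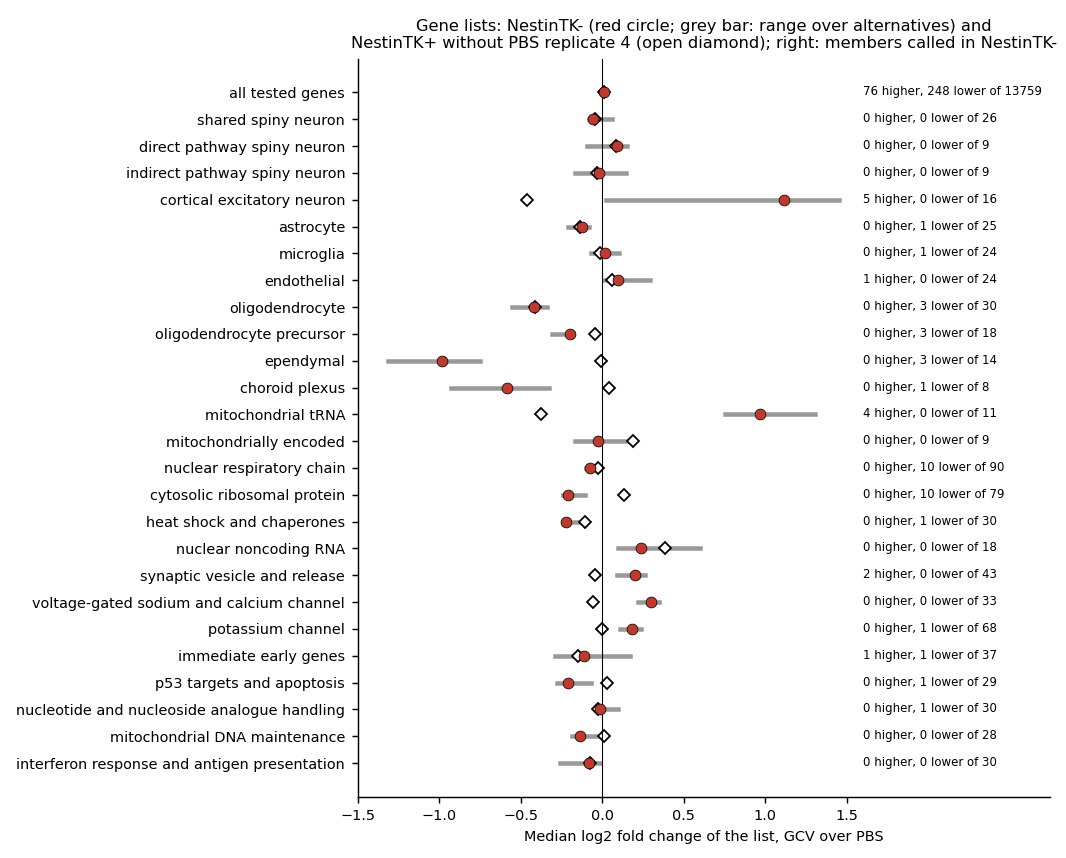
Median log2 fold change of GCV over PBS for all tested genes and 25 gene lists: wild-type striatum (red circle, with the grey bar spanning its lowest and highest value over the alternatives) and NestinTK+ striatum without PBS replicate 4 (open diamond); the text at the right gives the members called in wild-type mice. The ependymal (-0.99), choroid plexus (-0.59) and oligodendrocyte (-0.42) lists lie lowest, the cortical (1.12) and mitochondrial tRNA (0.97) lists highest, and the bar of the cortical list reaches 0.02.

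Identity genes of the spiny neurons had list medians near that of all genes, and most did not pass. Drd1, the dopamine receptor of the direct pathway, was at 899.6, 867 and 740.4 CPM in the GCV libraries and at 835, 939 and 851 CPM in the PBS libraries. Ppp1r1b, encoding DARPP-32, was at 3251, 2543 and 2488 CPM against 2463, 2926 and 2477 CPM. None of the 9 direct pathway, 9 indirect pathway and 26 shared spiny neuron genes tested was called by edgeR, DESeq2 or limma-voom, and 2, 2 and 5 of them had an unadjusted p under 0.05. Their medians were 0.09, -0.02 and -0.06. Of the 26 shared genes, 5 lay wholly lower and 1 wholly higher in the GCV libraries, beside 11.1% and 9.98% of all genes. Of the direct pathway genes 1 lay wholly lower, and no indirect pathway gene was free of overlap. Rarb, a retinoic acid receptor of striatal neurons, was the exception by adjusted p, at 77.8, 72.7 and 69.5 CPM in the GCV libraries and at 159.9, 103 and 138 CPM in the PBS libraries (-0.86 ± 0.18, edgeR adjusted p = 0.039). Genes of synapses and excitability leaned higher with few calls. Of 43 synaptic vesicle genes, 30 were positive, 2 were called higher (Slc17a7 and the fusion protein gene Stx1a), 11 had groups that did not overlap, all with GCV above (9.98% over all genes), and the median was 0.20. With GCV 1 alone that median was 0.09, in the comparison where the cortical list had 0.02; Slc17a7 is also a cortical marker, and the part of cortical tissue in this list was not tested. Stx1a was at 20.5, 20.0 and 40.8 CPM in the GCV libraries and at 11.5, 10.1 and 11.7 CPM in the PBS libraries (1.29 ± 0.30), highest in GCV 3. Voltage-gated sodium and calcium channel genes had a median of 0.30, the lowest value over the alternatives being 0.22; none of 33 was called by edgeR, DESeq2 or limma-voom, 12 had an unadjusted p under 0.05 (17.3% over all genes) and 9 did not overlap, all with GCV above (9.98% over all genes). With GCV 1 alone the median was 0.25. Potassium channel genes had a median of 0.18, with 49 of 68 positive and 1 called, Kcnj2, which was lower (-1.51 ± 0.39). Of the 68, 12 were wholly higher and 2 wholly lower, beside 9.98% and 11.1% of all genes.

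Lists that bear on the drug itself, and some others given here, had few members called. Of 30 tested genes of nucleotide and nucleoside analogue handling, 1 was called lower: Pnp, purine nucleoside phosphorylase, at 0.819, 1.73 and 2.98 CPM in the GCV libraries and at 8.44, 4.73 and 5.73 CPM in the PBS libraries (-1.73 ± 0.54, edgeR adjusted p = 0.11), which limma-voom did not call. The gene has a closely related neighbouring copy, Pnp2, so its counts are uncertain. The list median was -0.01. Among 28 genes of mitochondrial DNA maintenance none was called by edgeR, DESeq2 or limma-voom, 4 had an unadjusted p under 0.05, and the median was -0.14; Tfam, which packages mitochondrial DNA, was at 23.2, 22.2 and 22.5 CPM against 44.8, 25.6 and 48.7 CPM. Of 29 p53 targets and apoptosis genes 1 was called lower (Sesn1, -1.26 ± 0.33), with a median of -0.21, and the pro-apoptotic Bax was at 5.73, 9.61 and 8.49 CPM against 4.69, 4.95 and 3.10 CPM without passing. None of 30 interferon and antigen presentation genes was called by edgeR, DESeq2 or limma-voom, with 4 at an unadjusted p under 0.05 and a median of -0.08. Of 30 heat shock and chaperone genes 25 were negative and 1, Dnajb5, was called lower (-1.19 ± 0.24, edgeR adjusted p = 0.039). Of 23 circadian genes 2 were called lower (1.8% over all genes), among them Bhlhe41 (-1.14 ± 0.27), and the median was 0.08. Wholly lower were 7 of these and wholly higher 3, beside 11.1% and 9.98% of all genes. Dividing-cell markers were near the limit of detection, with 11 of 18 tested and none called by edgeR, DESeq2 or limma-voom, 2 of them at an unadjusted p under 0.05. Of the 11, 7 were negative, 2 wholly lower and none wholly higher. Their median was -0.27, from -1.03 with GCV 1 alone to -0.18 without GCV 3.

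The genes on which the study turns did not pass. Nes was at 8.46, 4.93 and 3.21 CPM in the GCV libraries and at 1.41, 6.67 and 4.78 CPM in the PBS libraries, and Igfbpl1 at 8.46, 14.1 and 5.74 CPM against 10.1, 10.8 and 13.1 CPM; both overlap. Igf1r, the IGF-1 receptor, was at 49.9, 59.9 and 64.2 CPM in the GCV libraries and at 86.3, 89.3 and 81.2 CPM in the PBS libraries, which do not overlap, for a log2 fold change of -0.56 ± 0.16 and an edgeR adjusted p of 0.095. Insr, the insulin receptor, differed by 0.28 ± 0.20 and Irs1, its substrate, by -0.76 ± 0.42. Of 33 genes of the IGF list tested, none was called by edgeR, DESeq2 or limma-voom, and the median was -0.00. Of these, 9 had an unadjusted p under 0.05, beside 17.3% of all genes. In the GCV libraries 3 were wholly higher and 5 wholly lower, beside 9.98% and 11.1% of all genes.

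The remaining lists had few members called. Among neurons, striatal GABAergic interneuron genes had a median of 0.41 (15 tested, 1 called higher, Cck, which followed the cortical markers), but of -0.16 with GCV 1 alone, when 9 of 14 were negative. Cholinergic interneuron genes had a median of 0.11 (10 tested, 1 called lower, Ngfr; -0.02 without PBS 3), pallidal, septal and basal forebrain genes of 0.08, thalamic genes of 0.05 and neuroblast genes of -0.07. Of the vessel and barrier lists, endothelial genes had a median of 0.10 with 1 of 24 called higher, Vwf, which was at 16.4, 13.1 and 9.41 CPM against 6.57, 3.66 and 5.49 CPM. Pericyte and smooth muscle genes had a median of -0.20, which turned to 0.30 without PBS 2, meningeal fibroblast genes of -0.19, collagens of -0.26 (27 tested, 1 called lower), proteoglycan, laminin and perineuronal net genes of -0.18 and blood genes of 0.07. Reactive astrocyte genes (-0.31) and microglial activation genes (-0.05) had no member called by edgeR, DESeq2 or limma-voom, with 1 each at an unadjusted p under 0.05. Signalling lists leaned slightly positive, with medians of 0.08 for GABA receptors and synthesis, 0.17 for glutamate receptors (24 tested, 1 called lower), 0.16 for dopamine, acetylcholine, opioid, adenosine and cannabinoid signalling, 0.12 for postsynaptic scaffolds, 0.18 for axonal transport and tubulin and 0.23 for clustered protocadherins (31 tested, 1 called higher), the last sharing near-identical exons. Of the glutamate receptors 17 were positive, 8 wholly higher and 2 wholly lower, beside 9.98% and 11.1% of all genes without overlap. Glucocorticoid response genes had a median of -0.17 (25 tested, Sesn1 and Tsc22d4 called lower), unfolded protein response genes of -0.14 (24 tested, Edem1 called lower), late activity-response genes of -0.05, cholesterol and lipid synthesis genes of 0.04 and hypoxia and glycolysis genes of 0.09 (31 tested, Gapdh called lower).

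In NestinTK+ mice GCV ablates the precursor cells, and no library is shared with the wild-type comparison. There the same genes kept the wild-type sign less often than all genes, or about as often, depending on the rule. Of the 248 genes called lower in wild-type mice, 111 were negative in NestinTK+ mice, with a median of 0.03, and of the 76 called higher 23 were positive, with a median of -0.20. In total 134 of 324 (41.4%) had the same sign, beside 48.1% of all genes tested. At an adjusted p under 0.05 it was 36 of 63 lower and 0 of 12 higher genes, 36 of 75 (48.0%) together. NestinTK+ PBS 4 carried thalamic markers at 2208 CPM, against 184 to 265 CPM in the other 14 striatum libraries. Without it, 100 of 324 (30.9%) had the same sign, and 24 of 75 at an adjusted p under 0.05. With the same thresholds 90 genes (0.654%) were higher and 79 (0.574%) lower in NestinTK+ mice, or 98 and 20 without that library. Ttr, Agt and Anln, a scaffold gene expressed in myelinating cells, were called lower in both genotypes, and none of the 3 without NestinTK+ PBS 4, whose Ttr stood at 1360 CPM. The oligodendrocyte list was negative for all 30 genes in NestinTK+ mice as well, with a median of -0.66, or for 29 with a median of -0.41 without that library.

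The difference between the genotypes was tested directly in all 15 striatum libraries. At an adjusted p under 0.05, 122 genes (0.887%) had a GCV effect that differed between NestinTK+ and NestinTK- mice, and 50 of these were among the 324 genes called in wild-type mice, 38 of the 248 lower and 12 of the 76 higher. The wild-type libraries enter both the calls and this test. For Cyr61 the difference of the log2 fold changes was 2.15 (edgeR adjusted p = 0.024), for mt-Tq -1.83 (edgeR adjusted p = 0.024) and for Llgl1 1.51 (edgeR adjusted p = 0.038). No oligodendrocyte or ependymal marker passed this test. That count rested on single libraries: it was 490 without NestinTK+ PBS 4, 577 without wild-type PBS 2, 213 without wild-type GCV 3 and 236 without NestinTK+ GCV 5. It fell to 53 and 29 without NestinTK+ PBS 1 and GCV 3, and to at most 4 without wild-type GCV 2, PBS 1 or PBS 3 or without NestinTK+ GCV 1, GCV 2 or PBS 2. By the nominal thresholds 471 genes differed, 327 to 750 over these sets.

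**Figure D4:**
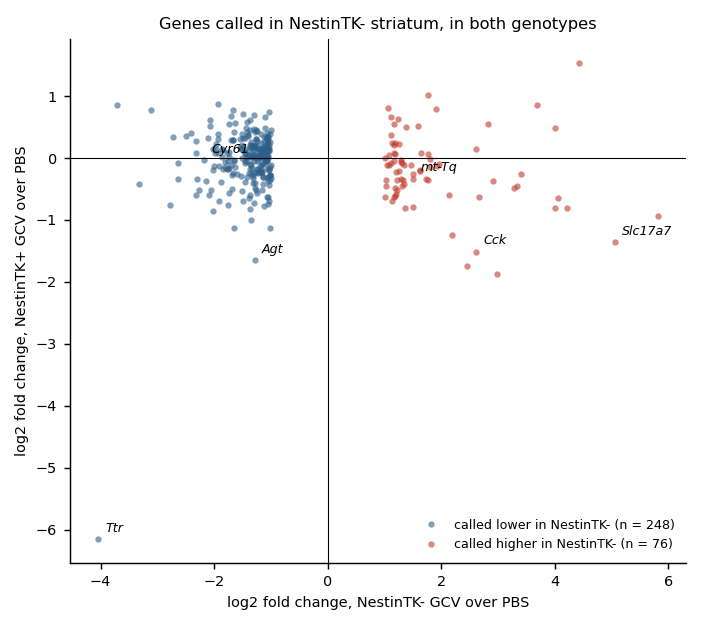
Log2 fold change of GCV over PBS in NestinTK+ striatum (y axis) against that in wild-type striatum (x axis) for the 248 genes called lower (blue) and the 76 called higher (red) in wild-type mice. The points spread to both sides of the horizontal line, 111 of the 248 and 53 of the 76 lying below it, and Ttr stands alone at -6.15 on the y axis, where NestinTK+ PBS 4 decides the value.

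In the SVZ of the same 6 mice, prepared with another kit, 234 of the lower and 58 of the higher genes could be compared, and 122 and 36 had the same sign, 54.1% in all, beside 51.8% of all genes measured in both tissues. Ttr alone of the lower genes was also called lower there, and Slc17a7, Cck, Atp2b4, Cadps2 and Pde1a of the higher genes were also called higher. The SVZ libraries of PBS mice 1 and 2 carried choroid plexus markers at 52612 and 114866 CPM, against 185 to 719 CPM in the other 4. Oligodendrocyte markers went the other way in the SVZ, 28 of 30 being positive with a median of 0.58, and the mitochondrial tRNAs had a median of -0.41. Foxj1 was negative in both tissues, at -1.44 in the SVZ, and the ependymal list was negative for 13 of 14 genes there. The SVZ comparison was the noisier one, its edgeR coefficient of variation between mice being 0.753 against 0.214 for the striatum.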

How the data were processed

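The deposited values were raw gene counts. Per the labels and the study's methods, the authors prepared striatal RNA with a QuantSeq 3′ kit and SVZ RNA with SMART-Seq v4, trimmed reads with Trimmomatic (0.36 in the submitters' processing notes, an earlier version in the methods), aligned them with STAR 2.5.3a to GRCm38 (mm10) and counted with featureCounts; the strand setting is not given in the sources used here. Genes with CPM above 1 in at least 3 of the 6 libraries were tested with edgeR 4.0.16 (R 4.3.3; TMM factors, glmQLFit, glmQLFTest), Benjamini-Hochberg adjusted over all genes. Per-library CPM are TMM scaled and list sums use plain library totals. limma-voom (limma 3.58.1), DESeq2 1.42.0, other filters and scalings, thinned counts, and leaving out each library were alternatives. The fit was tested on simulated data with known changes. Genes named are the 12 per direction of lowest p at adjusted p under 0.05, the 10 per direction of largest change among called genes without overlap and above a mean of 5 CPM, up to 4 members of lowest p per list, and 5 study genes; others are given for comparison, and some that the rule names are not reported here. The members and the 50 lists were chosen with earlier results of these data known. Positions and transcript lengths are from GENCODE vM21. The 6 libraries were pairwise distinct beyond sampling noise. The alternative without NestinTK+ PBS replicate 4 and the mitochondrial tRNA list were added after the values were seen. Nothing says that the mice were separate litters or batches, and p-values measure the spread between these mice. With 3 against 3, an exact permutation test cannot go below a p of 0.1, so single sums are given without one.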

Additional observations from a re-analysis of the deposited data

Results flagged for a closer look

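Some named genes had a GCV effect that differed between the genotypes in the interaction test (edgeR adjusted p under 0.05, 15 striatum libraries). The values below are the NestinTK+ log2 fold change minus the NestinTK- one. The wild-type difference enters both the choice of these genes and this test, and for each the difference has the opposite sign to the wild-type fold change. Among genes that were higher in wild-type GCV libraries it was -1.83 for mt-Tq, -1.74 for mt-Ta, -1.23 for mt-Tm, -1.78 for Mpi, -1.47 for Sh3gl2, -1.45 for Map3k10, -1.13 for Peg13, -1.44 for Gpatch2, -3.42 for Nxph3 and -6.42 for Slc17a7. Slc17a7 and Nxph3 were highest in GCV replicate 3. Among genes that were lower it was 2.15 for Cyr61, 1.51 for Llgl1, 1.07 for Mfsd14b, 1.37 for Ndufb3, 1.46 for Map2k1, 1.42 for Elmo1, 2.85 for Gstp1 and 2.81 for Clcn2.

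In the NestinTK+ PBS group of 4, replicate 4 stood far from the other 3 in the summed CPM of thalamic markers (2208), oligodendrocyte markers (10671) and choroid plexus markers (2264). The rule that flags a gap would by chance pass about 1 in 20 groups, a rate of the rule and not of the gaps seen here. That library takes no part in the wild-type comparison.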

How the results depend on the processing

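No paired analysis was possible because the GCV and PBS mice are different animals and share no number in the labels that marks a litter, batch or day. The 76 higher calls became 126 with no filter on low counts, 24 with GCV replicate 1 alone against the PBS mice of the 3400 series, and 50 to 159 on leaving out each library. The 248 lower calls became 109 with GCV replicate 1 alone and 107 to 440 on leaving out each library. The 75 genes at an adjusted p under 0.05 became 49 with limma-voom, 535 with DESeq2, 883 with no filter, 344 when all 15 striatum libraries shared the dispersion, 162 after thinning to the smallest library, 0 with GCV replicate 1 alone, and 1 to 1149 on leaving out each library. The interaction calls went from 471 to between 327 and 750, 382 with limma-voom and 512 with DESeq2; at an adjusted p under 0.05 the 122 genes became 100 with limma-voom, 492 with DESeq2 and 0 to 577 on leaving out each library. The share of called genes with the same sign in NestinTK+ mice, 41.4%, was 48.0% for genes at an adjusted p under 0.05 and 30.9% without NestinTK+ PBS replicate 4, an alternative chosen after seeing the data; the share in the SVZ, 54.1%, was 37.8% for genes at an adjusted p under 0.05. With GCV replicate 1 alone, 3 of 79 named genes that had passed reversed: Cck (-0.41), Neurod2 (-1.29) and Nr4a2 (-2.66). That setting has 1 mouse in an arm, with the spread taken from the PBS libraries, so its counts of calls do not bear on stability. limma-voom lost 13 of the 79, DESeq2 9, and leaving out 1 library between 1 (PBS replicate 2) and 28 (GCV replicate 2), with no reversal. The cause of these shifts was not tested.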
